A study of Mus musculus with 24 samples.

Results

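The expression of 10 genes of the melanocyte lineage (Dct, Tyrp1, Tyr, Pmel, Mlana, Mitf, Slc45a2, Oca2, Kit and Gpr143) was followed by bulk RNA-Seq in 2 vessels of the E18.5 mouse embryo, the ductus arteriosus (DA), the fetal vessel that closes at birth, and the ascending aorta. The 10 genes are among the 54752 genes of the count table, and they were selected on measured values of these same libraries, because transcripts of pigment genes were high in control DA and low in Prdm6-deficient DA and in control aorta. Levels in control DA, and the differences between the 4 groups, are therefore given for these genes as descriptions without a test. Prdm6-deficient embryos (Wnt1Cre;PRDM6f/f, with both Prdm6 alleles floxed) gave 5 DA and 5 ascending aorta libraries, and control embryos gave 7 DA and 6 ascending aorta libraries. Most controls carried 1 floxed Prdm6 allele and no Cre (PRDM6wt/f, 5 DA and 5 aorta libraries). Control DA replicate 3 came from an embryo with neither a floxed allele nor Cre (PRDM6wt/wt), and control DA replicate 2 and control aorta replicate 3 came from 1 embryo that carried Cre and wild-type Prdm6 (Wnt1Cre;PRDM6wt/wt). Prdm6-deficient DA replicates 1 and 2 were pools of 2 embryos each. The animal numbers in the sample labels fall into a first and a second series, with 8 libraries in the first. The Wnt1 promoter drives Cre in the neural crest, whose descendants include many smooth muscle cells of both vessels, Schwann cells and melanocytes, so these libraries do not show in which of these cells Prdm6 was lost.

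Melanocytes make the pigment melanin in an organelle called the melanosome, and they descend from the neural crest through migrating precursors called melanoblasts. Melanoblasts survive and migrate through the receptor Kit and its ligand, and the transcription factor Mitf switches on the genes of the melanosome, among them the 3 enzymes of melanin synthesis, tyrosinase (Tyr), Tyrp1 and dopachrome tautomerase (Dct). Pigmented cells also lie outside the skin, for example in the valves and septa of the mouse heart. Mitf binds a sequence called the M-box, whose core is TCATGTG, in the promoters of pigment genes.

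The promoters of the 3 enzymes are shown because each holds the M-box core within the 250 bases before its RefSeq start (RefSeq windows on GRCm38.p6, each printed 5′ to 3′ on the strand of its gene, with every M-box core in capitals, read in either direction). That of Trpm1, a cation channel gene, is added because it was the one gene with this core among the other melanocyte genes that fell in Prdm6-deficient DA, as described further on. They lie at chr7:87493513-87493762 on the minus strand (Tyr), chr4:80833963-80834212 on the plus strand (Tyrp1), chr14:118052247-118052496 on the minus strand (Dct) and chr7:64153585-64153834 on the plus strand (Trpm1).
Tyr: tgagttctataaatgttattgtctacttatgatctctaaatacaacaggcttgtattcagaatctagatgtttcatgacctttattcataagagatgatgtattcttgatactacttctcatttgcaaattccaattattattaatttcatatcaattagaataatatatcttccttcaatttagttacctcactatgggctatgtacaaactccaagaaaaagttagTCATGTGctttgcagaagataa
Tyrp1: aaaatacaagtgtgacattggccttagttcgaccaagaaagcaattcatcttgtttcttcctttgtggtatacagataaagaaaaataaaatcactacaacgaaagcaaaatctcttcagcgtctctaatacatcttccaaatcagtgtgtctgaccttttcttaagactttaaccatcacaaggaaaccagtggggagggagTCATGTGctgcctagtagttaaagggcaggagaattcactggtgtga
Dct: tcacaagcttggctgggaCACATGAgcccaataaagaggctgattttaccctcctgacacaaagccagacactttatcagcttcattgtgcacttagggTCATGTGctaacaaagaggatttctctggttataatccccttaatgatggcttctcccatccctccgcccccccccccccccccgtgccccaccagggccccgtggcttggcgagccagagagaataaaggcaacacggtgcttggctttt
Trpm1: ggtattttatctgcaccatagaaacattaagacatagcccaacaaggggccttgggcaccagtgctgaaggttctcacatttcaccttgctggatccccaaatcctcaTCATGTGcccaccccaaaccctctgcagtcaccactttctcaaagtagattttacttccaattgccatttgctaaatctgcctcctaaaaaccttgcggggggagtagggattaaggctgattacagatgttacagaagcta

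The core began 22 bases before the start in Tyr, 47 in Tyrp1 and 142 in Trpm1. Dct held it at 151 bases before the start, and again at 232 bases, there on the opposite strand. Another RefSeq window of Trpm1, at a different start and not printed here, did not hold the core. Windows were matched for 6 of the 10 genes, and 3 of these 6 held TCATGTG on either strand, against 4.31% of the 27025 genes with a window (3.77% of 32851 windows, which run from 250 bases before to 50 bases after a start). Of the other melanocyte genes on a list used further on, 6 of the 44 with a window held it (13.6%), namely Trpm1, Hps1, Mc1r, Slc24a5, Slc7a11 and Tspan10. Kit and Mitf had no such match, and Oca2 held only the shorter CATGTG, a letter string within the M-box core that 15.9% of all genes with a window share. Pmel, Mlana, Slc45a2 and Gpr143 were not matched to a window. A match describes letters in these windows and was not tested as a binding site.

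Total counts ranged from 15163931 to 22610501 per library. The detection limit was set at 3 counts, and 3 counts or fewer were taken as not detected. This limit stood for 0.135 to 0.201 CPM (read counts scaled to a common library size after TMM normalization). Of the 10 genes, 8 passed the filter on low counts, and Oca2 and Gpr143 did not. The count of the targeted gene, Prdm6, was 58.7 to 78.5 CPM in Prdm6-deficient DA against 85.0 to 127 CPM in control DA, and 61.9 to 81.2 CPM against 95.6 to 136 CPM in the aorta, so that every Prdm6-deficient library lay below every control library of its vessel. The summed level of 8 smooth muscle genes was 8418 CPM or more in all 23 libraries. Both vessels hold smooth muscle, so this sum does not check which vessel a label names. One library stood apart for the pigment genes: control aorta replicate 4, from the same embryo as control DA replicate 4, held Dct, Tyrp1 and Slc45a2 at levels that the other control aortas did not have, and values with and without it are given with each result it touches.

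The enzymes of melanin synthesis were nearly confined to control DA among the 23 libraries, with control aorta replicate 4 as the exception. Dct (chr14:118012790-118052244, minus strand, mm10), which converts dopachrome on the way to eumelanin, was present in all 7 control DA libraries, at 26.8, 17.6, 129, 51.4, 55.6, 75.9 and 26.7 CPM in replicates 1 to 7. In Prdm6-deficient DA it had 0 counts in 4 libraries and 1 count in replicate 7, and the groups did not overlap. The mean of control DA, 54.7 ± 38.5 CPM (SD, n = 7), was at least 336-fold above the level that 3 counts per library allow in Prdm6-deficient DA, and at least 260-fold without control DA replicate 3. In bulk tissue, fewer cells of a type and less RNA per cell cannot be told apart. Dct lay between 0 and 7.91 CPM in control aorta, with a median of 0.0766 CPM, so that control DA was 39.3-fold higher on the mean with control aorta replicate 4 and at least 309-fold higher without it. In Prdm6-deficient aorta it had at most 2 counts in any library.

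Tyrp1 (chr4:80834123-80851719, plus strand), which acts beside Dct in the same pathway and stabilizes tyrosinase, had 3.23 CPM at the lowest, 13.6 at the median and 32.3 at the highest in control DA. It was at 0 counts in 4 of the 5 Prdm6-deficient DA libraries and at 1 count in replicate 7, so that the control mean of 15.2 ± 9.14 CPM (SD, n = 7) was at least 93.5-fold above the detection limit there. Against control aorta it was 27.6-fold higher, and at least 72.4-fold higher without control aorta replicate 4, whose 59 counts compare with at most 9 in the other control aortas. All 7 control DA libraries lay above all libraries of the other groups.

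Tyr (chr7:87424771-87493512, minus strand), the rate-limiting enzyme of melanin synthesis, was much scarcer. It had 0 counts in control DA replicate 2, 5 counts (0.241 CPM) in replicate 7 and at most 67 counts (3.73 CPM, replicate 3), with a mean of 1.45 ± 1.56 CPM (SD, n = 7). All 5 Prdm6-deficient DA libraries were at 0, which makes control DA at least 8.90-fold higher, and 6 of the 7 control DA libraries exceeded them. In the aorta Tyr was at 0 except for 3 counts in control aorta replicate 4 and 5 counts in Prdm6-deficient aorta replicate 1.

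**Figure D1:**
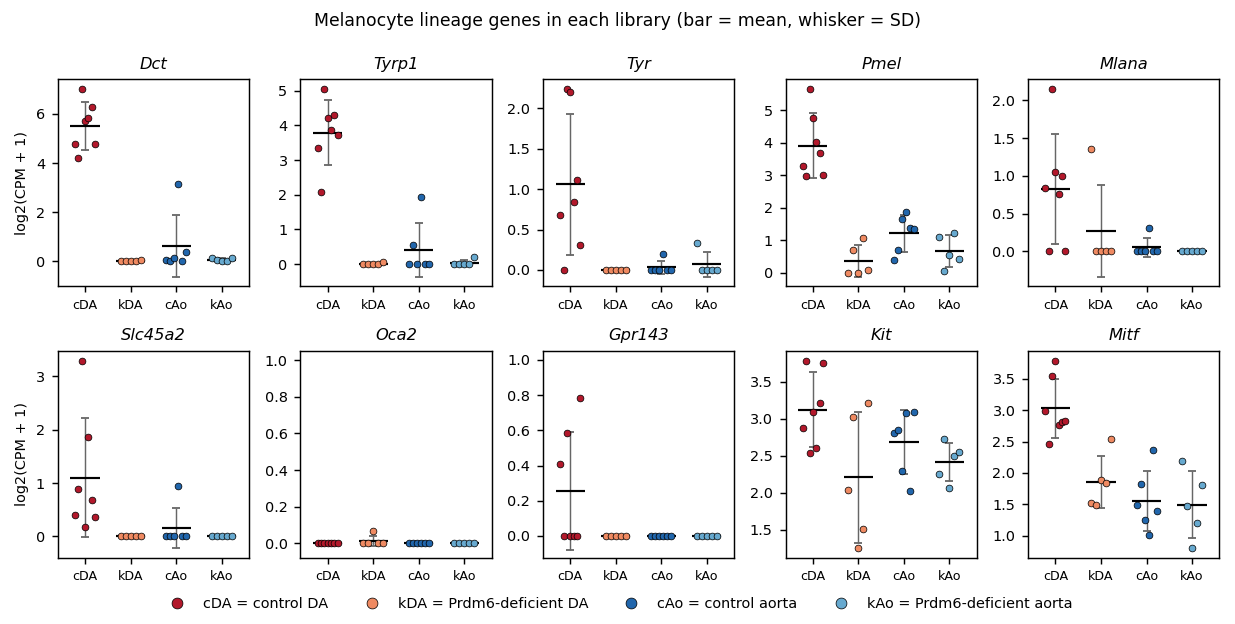
Levels of the 10 melanocyte lineage genes in each of the 23 libraries, as log2(CPM + 1) on the vertical axis, with 1 point per library, the bar at the group mean and the whisker the SD of the log2 values, for control DA (7), Prdm6-deficient DA (5), control aorta (6) and Prdm6-deficient aorta (5). Dct, Tyrp1 and Pmel were higher in every control DA library than in any other library, 1 control aorta library (replicate 4) rose above the others for Dct and Tyrp1, and Kit overlapped between all groups.

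Among the proteins of the melanosome, Pmel (chr10:128704195-128720238, plus strand), which forms the fibrils on which melanin is laid down, ranged from 6.87 to 49.6 CPM in control DA, with a median of 11.8 CPM. In Prdm6-deficient DA it was at 0, 0.625, 0, 1.09 and 0.0491 CPM in replicates 1, 2, 5, 6 and 7, below every control DA library, and the ratio of the means was 50.8 (35.8 without control DA replicate 3). In contrast to the enzymes, Pmel was also counted in all 6 control aortas, at 0.303 to 2.65 CPM, and in 4 of the 5 Prdm6-deficient aortas above 3 counts. The ratio of control DA to control aorta was 12.2, and 14.5 without control aorta replicate 4. Pmel overlaps Cdk2 and Dgka on the opposite strand, which averaged 46.4 and 9.44 CPM in control DA, and whether reads were counted by strand is not stated, so low Pmel counts cannot be told apart from reads of these neighbours.

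Slc45a2 (chr15:11000721-11029233, plus strand), a transporter that raises the pH of the melanosome, spread most among the control DA libraries. It had 8.84 CPM in replicate 3 and 0.134 to 2.66 CPM in the other 6, and it was at 0 in all Prdm6-deficient DA libraries. Control DA was at least 12.03-fold higher than Prdm6-deficient DA, and at least 4.99-fold higher without replicate 3. The lowest control value, in replicate 4, came from 2 counts, so that the lack of overlap rests on fewer reads than the detection limit. In control aorta Slc45a2 had 19 counts in replicate 4 and 0 in the other 5 libraries.

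Mlana (chr19:29697824-29708634, plus strand), which helps Pmel to mature in the early melanosome, had between 0 and 3.45 CPM in control DA (median 0.790 CPM) and 0 counts in replicates 2 and 7. It was the 1 pigment gene that stood out in a Prdm6-deficient DA library, with 25 counts (1.56 CPM) in the pooled replicate 1, in which Dct, Tyrp1, Tyr, Pmel and Slc45a2 had 0 counts. The mean of control DA was 3.21-fold that of Prdm6-deficient DA, and at least 6.38-fold higher without this library. It was 1.90-fold without control DA replicate 3, which held the most Mlana. In the aorta it was at 0 except for 5 counts in control aorta replicate 4. Oca2 (chr7:56239760-56536518, plus strand), an anion channel of the melanosome, was at 0 in 22 of the 23 libraries and had 1 count in Prdm6-deficient DA replicate 5. It was thus not detectable at this depth in any group.

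Of the receptors and the transcription factor, Kit and Mitf are not restricted to pigment cells, and they were counted in every library of all 4 groups. Gpr143 (chrX:152781921-152808646, plus strand), a receptor on the melanosome membrane, had 7, 9 and 15 counts in control DA replicates 1, 3 and 7 and was at 0 in the other 20 libraries. Kit (chr5:75574916-75656722, plus strand), the receptor for stem cell factor, which mast cells and other cells also carry, averaged 8.17 ± 3.30 CPM (SD, n = 7) in control DA. It had 3.12, 7.16, 1.37, 1.84 and 8.24 CPM in Prdm6-deficient DA replicates 1, 2, 5, 6 and 7, so that the groups overlapped and the ratio of the means was 1.88. This ratio was 4.16 within the first series of animals (2 against 3 libraries) and 1.03 within the second (5 against 2). Against control aorta, at 3.06 to 7.48 CPM, the ratio was 1.44 (1.53 without control aorta replicate 4) and the libraries overlapped.

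Mitf (chr6:97807052-98021349, plus strand), the transcription factor of the lineage, was at 4.50 to 12.8 CPM in control DA and at 1.82 to 4.81 CPM in Prdm6-deficient DA, where 1 library, replicate 7, reached into the control range. The ratio of the means was 2.74, with 3.18 in the first series and 2.28 in the second. Against control aorta, at 1.01 to 4.14 CPM, Mitf was 3.62-fold higher (3.28-fold without control aorta replicate 4) and the libraries did not overlap. Control aorta replicate 4, which held the enzymes, had the lowest Mitf value of the control aortas.

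Without overlap, 4 of the 8 genes that passed the filter (Dct, Tyrp1, Pmel and Slc45a2) were higher in every control DA library than in every Prdm6-deficient DA library, and 4 (Dct, Tyrp1, Pmel and Mitf) were higher than in every control aorta library. Over all 16463 genes tested the corresponding shares were 2.93% and 3.01%. Since these contrasts chose the genes, nothing is read from the counts.

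Scaled by exon length as CPM per kilobase, which allows levels of different genes to be compared, the order in control DA was Dct (9.28 ± 6.53, SD, n = 7), Pmel (7.83 ± 6.77), Tyrp1 (5.39 ± 3.23), Mitf (1.22 ± 0.488), Mlana (0.946 ± 1.10), Kit (0.917 ± 0.370), Slc45a2 (0.657 ± 1.06), Tyr (0.204 ± 0.220), Gpr143 (0.111 ± 0.1498) and Oca2, at 0. Dct and Pmel, Pmel and Tyrp1, Mitf and Mlana, Mlana and Kit, Kit and Slc45a2, and Tyr and Gpr143 were neighbours that lay closer than the smaller of their SDs. Tyrp1 lay above Mitf by more than either SD, and Slc45a2 above Tyr by more than the SD of Tyr alone. In Prdm6-deficient DA the order was headed by Kit (0.488 ± 0.354, SD, n = 5) and Mitf (0.445 ± 0.196), and the enzymes were at or below 0.00347 CPM per kilobase.

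The spread among the control DA libraries themselves was not used in choosing the genes, and Dct served as the anchor for comparing it. On log2(CPM + 1), Dct went with Tyrp1 (Pearson's r = 0.92, exact permutation p = 0.00317, adjusted p = 0.0254 over the 8 genes with any count; Spearman's rho = 0.93, p = 0.00675, adjusted p = 0.0492, n = 7 libraries). Pmel (r = 0.86, exact permutation p = 0.0103, adjusted p = 0.0275; rho = 0.86, p = 0.0238, adjusted p = 0.0635) and Mlana (r = 0.89, exact permutation p = 0.00913, adjusted p = 0.0275; rho = 0.81, p = 0.0381, adjusted p = 0.0762) passed by r and not by rho. Tyr passed by rho and not by r (r = 0.82, exact permutation p = 0.0264, adjusted p = 0.0528; rho = 0.89, p = 0.0123, adjusted p = 0.0492). Without control DA replicates 2 and 3, the lowest and the highest for Dct, r was 0.86 for Tyrp1, 0.61 for Pmel, 0.65 for Mlana and 0.53 for Tyr over 5 libraries, and 0 of the 8 relations passed. The same 5 libraries are those of the second series, and the first series holds only 2. With 5 libraries the exact test has little room to pass after adjustment, so the loss of these calls says little of itself. The r of Tyrp1 changed least.

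Mitf (r = 0.58, adjusted p = 0.211, exact permutation) and Slc45a2 (r = 0.67, adjusted p = 0.134, exact permutation) followed Dct less closely, and the sign of the relation was below 0 for Kit (r = -0.72, adjusted p = 0.112, exact permutation; rho = -0.75). None of these passed.

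Markers of other cell types varied among the same 7 libraries, and their relations to Dct and Kit were examined after the values had been seen, 10 relations in all. Kit followed the summed level of 9 mast cell genes with r = 0.83 (rho = 0.71, exact permutation p = 0.0242 and 0.0881, adjusted p = 0.134 and 0.219), and r was 0.65 without the 2 libraries farthest from the median of these genes. Control DA replicates 2 and 7, which had the most Kit (12.8 and 12.5 CPM), had 179 and 142 CPM of these genes against 41.5 to 96.8 CPM in the other 5. Dct went with the summed level of the 8 smooth muscle genes (r = 0.81, rho = 0.79, exact permutation p = 0.0315 and 0.0480, adjusted p = 0.134 and 0.160), and against the mast cell genes (r = -0.79, rho = -0.82, exact permutation p = 0.0403 and 0.0341, adjusted p = 0.134 and 0.160). With the 2 libraries farthest from the median left out, r was 0.86 and -0.81. None of the 10 relations passed after adjustment, and the part of tissue composition in the spread of Dct was not tested.

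**Figure D2:**
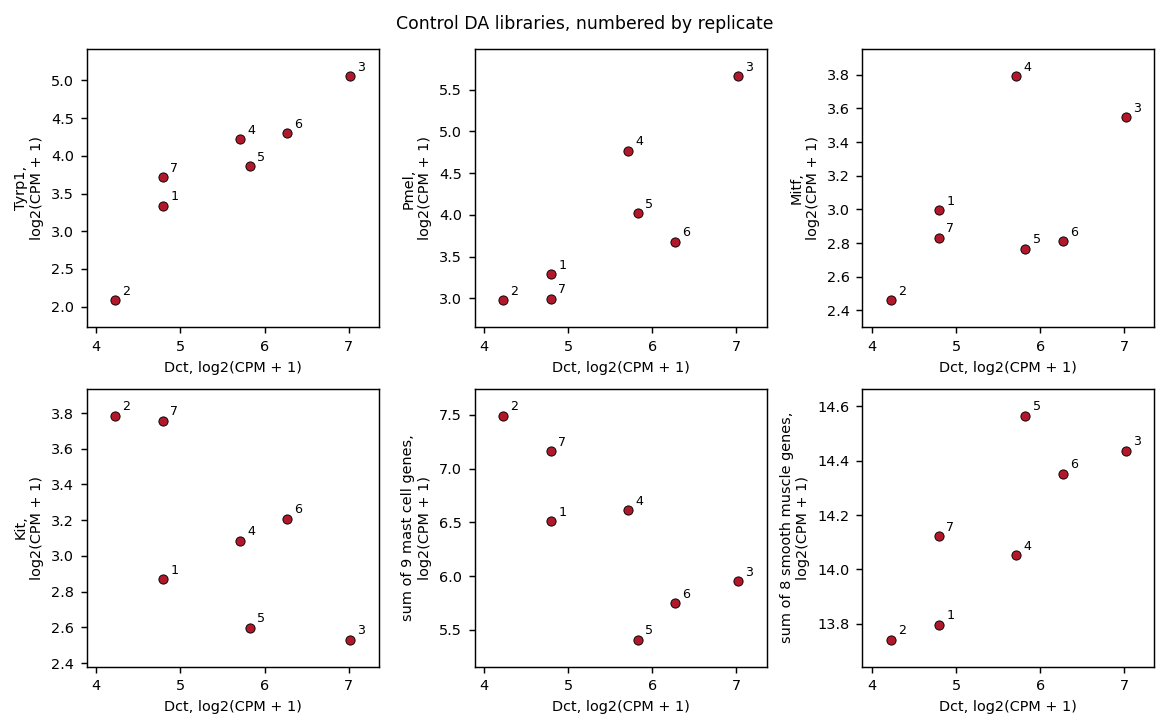
Each panel plots the 7 control DA libraries, numbered by replicate, with Dct on the horizontal axis and another value on the vertical axis, both as log2(CPM + 1). Tyrp1 and Pmel were lowest in replicate 2 and highest in replicate 3, as Dct was (r = 0.92 and 0.86), while Kit and the 9 mast cell genes were highest in replicates 2 and 7.

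Of the 7 control DA libraries, 6 had an aorta library from the same embryo, which allowed the vessels to be compared within embryos. Dct was at 51.4 CPM in the DA and 7.91 CPM in the aorta of the embryo behind replicate 4 of both groups, and at 17.6 to 75.9 CPM against 0 to 0.288 CPM in the other 5 embryos. In 4 of the 6 aortas Dct was at 2 counts or fewer, so whether its level followed that in the DA could not be tested.

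Control aorta replicate 4 held a mix of pigment transcripts within the range of control DA for 5 of 6 genes. Among the 305 counts of Dct, Tyrp1, Pmel, Tyr, Slc45a2 and Mlana in it, Dct took 53.8% (exact 95% binomial interval 48.0 to 59.5, for counting error only), Tyrp1 19.3% and Pmel 18.0%, against 51.3 to 69.5%, 11.3 to 26.2% and 10.8 to 26.3% over the control DA libraries. Tyr and Mlana also lay within the control DA range, whereas Slc45a2, at 6.23% (3.79 to 9.56), was above its range of 0.134 to 3.90%. Relative to the DA of the same embryo, the level in this aorta was 15.4% for Dct, 16.1% for Tyrp1 and 10.1% for Pmel. The other genes of the mix differed from this, with 4.0% for Tyr, 22.5% for Mlana and 685% for Slc45a2. Slc45a2 had 19 counts in this aorta and 2 in that DA. Kit was at 99.1% and Mitf at 7.9%. Of the 8 smooth muscle genes, 4 (Des, Myh11, Cnn1 and Mylk) lay above the range of the other 5 control aortas there, Acta2, Tagln and Smtn lay within it and Myocd below it, and their sum of 10740 CPM was within the 8418 to 11940 CPM of the others. Des was at 54.9 CPM against 21.3 to 35.8 CPM in the other 5 control aortas, or 16.3% of its level in the DA of this embryo, and Myh11 was at 773 against 325 to 690 CPM. Whether DA tissue was carried into this library was not tested.

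**Figure D3:**
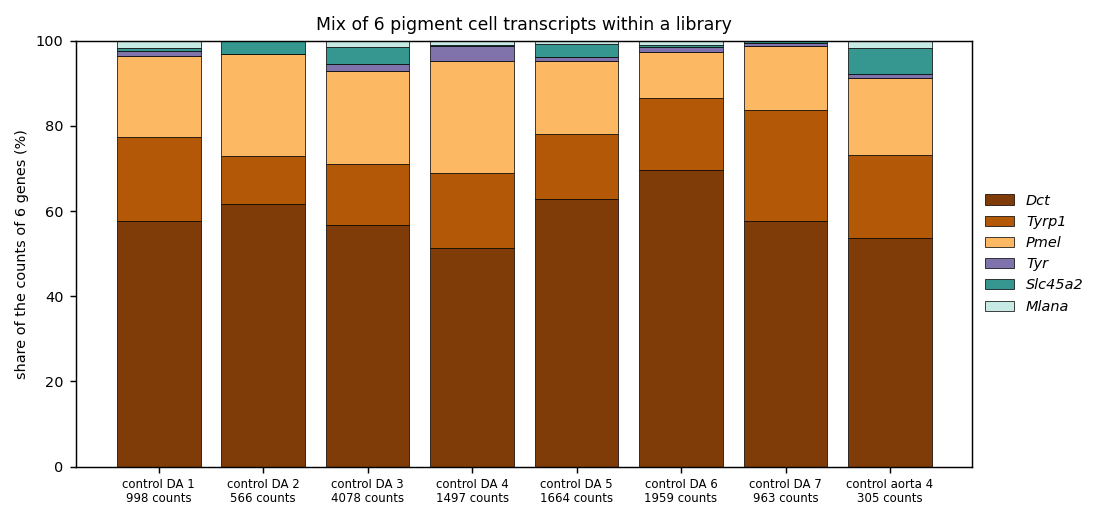
Bars show how the counts of 6 pigment cell transcripts divide among Dct, Tyrp1, Pmel, Tyr, Slc45a2 and Mlana, in percent, in the 7 control DA libraries and in control aorta replicate 4, with the total of these counts under each bar. Dct took 51.3 to 69.5% in control DA and 53.8% in control aorta replicate 4.

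Outside control DA, and with control aorta replicate 4 set aside, the pigment genes left little to compare. Over the 2 Prdm6-deficient groups Dct had at most 2 counts and Tyrp1 at most 3 in any library, Slc45a2 was at 0 in all 10, and Tyr and Mlana each had counts in 1 library, so that a difference between these groups was not detectable at this depth. Pmel, Kit and Mitf were counted in both aorta groups, which overlapped for each of them. With all 6 control aortas, Pmel averaged 1.47 ± 0.890 CPM (SD, n = 6) in control aorta and 0.673 ± 0.559 CPM (n = 5) in Prdm6-deficient aorta, Kit 5.68 ± 1.83 against 4.40 ± 0.941 CPM, and Mitf 2.09 ± 1.13 against 1.97 ± 1.09 CPM. Without control aorta replicate 4, the control aorta means were 1.24 CPM for Pmel, 5.33 CPM for Kit and 2.30 CPM for Mitf. Since low values in these groups were part of the choice of the genes, these too are given without a test.

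A wider list of 53 genes of the melanocyte, from specification to melanosome transport, was tested in all comparisons, and 49 of them passed the filter. The test was that of edgeR with adjustment over all genes tested, and the threshold of a call was 0.01 for the adjusted p, together with a change of more than 0.5 on the log2 scale. Between Prdm6-deficient and control DA 6 of the 49 fell, where 2.82% of all genes tested did, and 3 rose, where 2.61% did. The median log2 fold change of the list was -0.02, next to 0.01 over all genes. By role, 2 of 6 channels and transporters of the melanosome fell, 1 of 20 genes of melanosome assembly and transport, 1 of 4 ligands, 1 of 11 specification factors and 1 of 5 other melanocyte genes, while 2 specification factors and 1 of the other genes rose and 0 of 3 receptors were called.

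The genes that fell include 3 with a pattern like that of the enzymes. Mcoln3, a calcium channel of endosomes and melanosomes, was at 0.910 to 6.46 CPM in control DA and at 0 in all 5 Prdm6-deficient DA libraries (at least 21.5-fold lower, edgeR adjusted p = 0.00311). Trpm1, a cation channel of melanocytes, had 0 to 51 counts in control DA and 0 in Prdm6-deficient DA (at least 9.08-fold lower, edgeR adjusted p = 0.00623), and this call was lost when only the DA groups were fitted, with the series as a covariate, without the pooled samples, and when control DA replicate 1 or 5 or any one of the Prdm6-deficient DA libraries was left out (edgeR adjusted p up to 0.0339). Gpnmb, a melanosome glycoprotein related to Pmel that macrophages also make, was at 2.65 to 27.4 CPM against at most 3 counts (at least 54.4-fold lower, edgeR adjusted p = 0.000434). Among the DA libraries, only those of controls, where these 3 genes are high, could carry them past the filter on low counts. Their p-values, and their part in the count of genes that fell, therefore carry little weight of their own.

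Both Mcoln3 and Gpnmb were also raised in control aorta replicate 4, to 1.16 CPM, where the other 5 control aortas had 0, and to 3.28 CPM, against at most 1.01 CPM in the others. The call of Mcoln3 was lost without the pooled samples (edgeR adjusted p = 0.0218), with 3 Prdm6-deficient DA libraries left.

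The other 3 genes that fell are not particular to pigment cells. Kitl, the ligand of Kit, fell from 70.0 ± 5.27 CPM (SD, n = 7) in control DA to 29.4 ± 7.21 CPM (n = 5), or by 1.25 ± 0.12 on the log2 scale (SE, edgeR adjusted p = 3.73e-08). Sox9, a transcription factor of the neural crest and of cartilage that acts upstream of Mitf in melanocytes, fell from 30.3 ± 12.1 to 4.64 ± 1.83 CPM (-2.71 ± 0.32, edgeR adjusted p = 9.64e-07). Rab27a, which links melanosomes to the actin transport machinery, fell from 49.6 ± 18.5 to 22.99 ± 2.61 CPM (-1.11 ± 0.18, edgeR adjusted p = 6.38e-05). For each of these 3 genes, every control DA library lay above every Prdm6-deficient DA library.

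Snai2 and Zeb2, transcription factors of the early neural crest and of mesenchyme, rose by 0.63 ± 0.14 and 0.63 ± 0.12 on the log2 scale (SE, edgeR adjusted p = 0.00317 and 0.000328), and Bace2, a protease that cleaves Pmel, rose by 0.76 ± 0.11 (edgeR adjusted p = 1.66e-05). Snai2 was at 16.9 to 27.8 CPM in control DA and 23.1 to 44.6 CPM in Prdm6-deficient DA, with overlap, and its call was lost when only the DA groups were fitted and without Prdm6-deficient DA replicate 1 or 7. Zeb2 and Bace2 did not overlap between the groups.

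Another 4 genes of the list did not pass the filter, were described after their values were seen, and had at most 1 count in any Prdm6-deficient DA library. Slc24a5, an ion exchanger of the melanosome, had up to 47 counts in control DA and was at 0 in 3 of the 7 libraries. Pax3, a transcription factor that acts upstream of Mitf, had up to 93 counts and was at 0 in 1 library. The melanocortin receptor Mc1r had up to 24 counts and was at 0 in 4. Its antagonist agouti (Asip) had 29 counts in 1 library and was at 0 in the other 6. Sox10, which melanocytes share with Schwann cells and which was singled out after its values were seen, did not go the way of the pigment genes: it averaged 6.81 ± 5.07 CPM (SD, n = 7) in the DA of controls and 18.1 ± 7.51 CPM (n = 5) in the Prdm6-deficient DA, a difference that did not pass the test (log2 fold change 1.40 ± 0.44, SE, edgeR adjusted p = 0.0362).

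**Figure D4:**
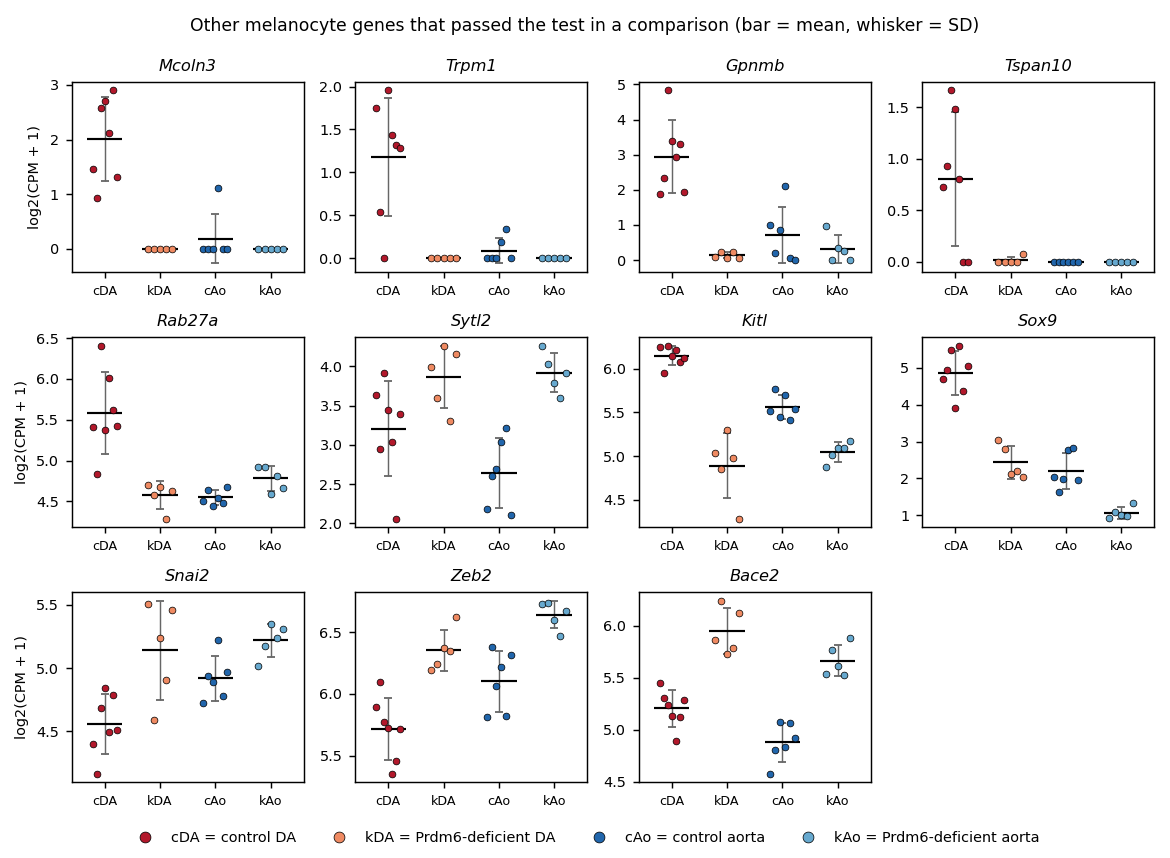
Levels of the 11 other melanocyte genes that passed the test in at least 1 comparison, in each of the 23 libraries as log2(CPM + 1), with 1 point per library, the bar at the mean and the whisker the SD of the log2 values. Mcoln3, Trpm1, Gpnmb and Tspan10 reached at most 3.28 CPM outside control DA, whereas Kitl, Sox9, Rab27a, Sytl2, Snai2, Zeb2 and Bace2 were counted in every library.

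Of the 49 genes 4 were higher in the DA than in the aorta of control embryos and 0 were lower, where 3.16% and 2.19% of all genes were. They were Sox9 (2.98 ± 0.30 on the log2 scale, SE, edgeR adjusted p = 7.25e-08), Rab27a (1.14 ± 0.17, edgeR adjusted p = 1.66e-05), Kitl (0.59 ± 0.11, edgeR adjusted p = 0.000419) and Tspan10, a tetraspanin of pigment cells. Tspan10 was at 0 in all 6 control aortas and in 2 of the 7 control DA libraries, and reached 39 counts (2.17 CPM) in the DA. Among control libraries, only those of the DA could carry Tspan10 past the filter on low counts, so its p carries little weight. It was called at an edgeR adjusted p of 0.00649, a call that was lost in 17 of 31 alternatives (adjusted p up to 0.113, with the animal as a block over embryos that gave both vessels), among them those that left out any 1 of the control aortas, 1 of control DA replicates 2 to 5 or Prdm6-deficient DA replicate 7.

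In Prdm6-deficient aorta 2 of the 49 genes fell and 3 rose against control aorta, where 0.826% and 1.63% of all genes did. Sox9 fell by 1.78 ± 0.34 on the log2 scale (SE, edgeR adjusted p = 0.00122) and Kitl by 0.53 ± 0.12 (edgeR adjusted p = 0.00693). Bace2 rose by 0.80 ± 0.11 (SE, edgeR adjusted p = 3.21e-05), Zeb2 by 0.53 ± 0.12 (edgeR adjusted p = 0.00615) and Sytl2, an effector of Rab27a, by 1.38 ± 0.29 (edgeR adjusted p = 0.00315). The call of Kitl was lost when any 1 of the Prdm6-deficient aortas or of control aorta replicates 1, 2, 4 and 6 was left out (edgeR adjusted p up to 0.0277). That of Sytl2 was lost without control aorta replicate 1 or 6 or Prdm6-deficient aorta replicate 1 (up to 0.0135), and that of Zeb2 without control aorta replicate 1, 3 or 5 or Prdm6-deficient aorta replicate 1, 2, 3 or 5 (up to 0.0209). Sox9 and Bace2 were called under all 31 alternatives.

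The effect of Prdm6 deficiency was larger in the DA than in the aorta for Rab27a (difference of the log2 fold changes -1.35 ± 0.25, SE, edgeR adjusted p = 0.000884) and Kitl (-0.72 ± 0.17, edgeR adjusted p = 0.00891). Over all genes tested, 1.66% had a difference below and 0.917% above 0 by the same rule, and none of the other 47 genes did. Between Prdm6-deficient DA and Prdm6-deficient aorta Sox9 alone of the 49 was called, where 0.152% of all genes were called higher and 0.115% lower (2.05 ± 0.35 on the log2 scale, higher in the DA, SE, edgeR adjusted p = 0.0028), and this call was lost in 10 of 32 alternatives, with an adjusted p of 1.0 with the animal as a block over the embryos that gave both vessels, and without any 1 of Prdm6-deficient DA replicates 1 and 2 and Prdm6-deficient aorta replicates 1 to 4.

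Markers of other cell types that make or could carry these transcripts were followed in the same libraries. Of 6 genes of the retinal pigment epithelium, the other pigmented cell type of the body, Rpe65 and Rgr were at 0 in all 23 libraries, and the summed level was 0 to 1.27 CPM in control DA and 0 to 4.8 CPM in Prdm6-deficient DA. Of 6 keratinocyte genes, Krt5 was at 0 in all DA libraries, and the sum was 12.2 to 31.1 CPM in control DA and 12.5 to 24.3 CPM in Prdm6-deficient DA. Only 1 of the 6 retinal pigment epithelium genes and 5 of the 6 keratinocyte genes passed the filter on low counts. None of those was called in the DA, and the others could not be called. Rlbp1, a retinal pigment epithelium gene that was not tested, averaged 0.907 CPM in Prdm6-deficient DA (up to 35 counts) and 0.00688 CPM in control DA.

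Mast cell genes summed to 41.5 to 179 CPM in control DA and 30.2 to 156 CPM in Prdm6-deficient DA, and 10 macrophage genes to 95.3 to 348 and 137 to 286 CPM, with none called in the DA. In the aorta the macrophage gene C1qc fell (log2 fold change -1.21 ± 0.27, SE, edgeR adjusted p = 0.00476). The 10 Schwann cell and glial genes summed to 198 to 461 CPM in control DA and 272 to 360 CPM in Prdm6-deficient DA, and 3 of them rose there: Fabp7 from 1.42 ± 1.30 to 12.1 ± 3.91 CPM (edgeR adjusted p = 0.00454), Gfra3 from 1.45 ± 0.831 to 9.49 ± 2.85 CPM (edgeR adjusted p = 0.000788) and Ngfr from 6.42 ± 3.85 to 17.4 ± 3.72 CPM (edgeR adjusted p = 0.00554; SD, n = 7 and 5).

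Most of the smooth muscle genes were also higher in control DA than in Prdm6-deficient DA and in control aorta. The pigment genes were chosen for this direction, so nothing is read from the likeness. Of the 8 smooth muscle genes 6 fell in Prdm6-deficient DA (Myh11, Cnn1, Des, Mylk, Smtn and Tagln), and their summed level was 13690 to 24260 CPM in control DA against 9752 to 11930 CPM. Of these genes 7 were higher in control DA when compared with control aorta. Endothelial genes (5, summing to 485 to 670 CPM in control DA and 514 to 757 CPM in Prdm6-deficient DA) and cardiomyocyte genes (6, at 30.1 to 1394 and 77.9 to 499 CPM) were not called in the DA, and of 5 fibroblast genes (2409 to 4655 and 3914 to 4715 CPM) Lum rose there. In the aorta Tek, Emcn, Lum and Mylk rose with Prdm6 deficiency, and Dpt was lower in control DA than in control aorta. The part of these cell types in the fall of the pigment genes was not tested.

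The genes whose pattern was most like that of Dct over all 23 libraries, by Pearson's r of log2(CPM + 1) with no p since the libraries fall into groups, were Mcoln3 (r = 0.97), Loxl4, Gm14226, Shroom3, Epgn, Cnn1, Mgll, Bdh1, Ptger4 and AC160336.1, the last with r = 0.96. Tyrp1 ranked first among all genes (r = 0.99), Pmel ranked 32 (r = 0.94) and Mitf 376 (r = 0.77) of 16462. Tyrp1, Pmel and Mitf were chosen on the group differences that shape this r, so nothing is read from their ranks. Most of the 10 genes are not pigment genes: Ptger4, a prostaglandin E receptor, averaged 195 CPM in control against 22.2 CPM in Prdm6-deficient DA, and Cnn1, a smooth muscle protein of the contractile apparatus, 1450 and 461 CPM. Within the 7 control DA libraries the r of these 10 genes with Dct ran from 0.32 for Ptger4 to 0.88 for Mcoln3, with 0.81 for Cnn1. The 5 genes most like Dct within control DA were Fxr1 (r = 0.98), Fam3a, Efr3a, Wsb2 and Rnf10 (r = 0.96), whose means differed little between the groups (102 against 86.1 CPM for Fxr1 in control and Prdm6-deficient DA), and Tyrp1 ranked 30 of 13944 genes there. With 7 libraries, such values describe the ranking only.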

How the data were processed

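RNA was isolated from dissected vessels of single embryos, or pools of 2 embryos in the case of Prdm6-deficient DA replicates 1 and 2, and libraries were made with a low-input NEBNext Ultra II kit. According to the methods of the study, the authors filtered reads by quality with FASTX, removed adapter artifacts with TagDust, aligned them to mm10 with STAR and summarized them per GENCODE gene with RSEM. The values the authors deposited are expected counts (estimated counts per gene, not normalized), which were rounded to whole numbers. The versions of STAR and RSEM are not given in the sources used here. Of 54752 gene identifiers, 53861 matched GENCODE M21 with their version and 54723 without it, and all 128 listed genes had 1 row (Asip is listed there under the symbol a). All columns of per-sample values were matched to a sample. Of 24 labelled samples, 23 had values, and replicate 4 of the Prdm6-deficient DA is not used here.

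Counts were filtered with filterByExpr, which left 16463 genes, scaled by TMM and fitted with edgeR (version 4.0.16, R version 4.3.3) by its quasi-likelihood test in one model over the 4 groups, with Benjamini-Hochberg adjustment over all genes tested. A gene was called below an adjusted p of 0.01 with a log2 change beyond 0.5. The procedure was tested on simulated data. Correlations used log2(CPM + 1) and exact two-sided permutation tests (scipy version 1.17.1), whose smallest p over 7 libraries is 0.000397. A fold against a group whose mean lay under the level of 3 counts was computed with each library at 3 counts or fewer set to 3 counts, and is a lower bound. Exact binomial intervals and these bounds cover counting error only. The embryos are separate animals, apart from the pools and from embryos that gave both vessels.

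The 10 genes and all gene lists were chosen with earlier results of these data known. Tests of the 10 between groups, planned for the comparisons without control DA, and the correlation of Dct between vessels of the same embryo were run and are not reported, since the choice or the low counts decided them. The genes named are the 10, each other melanocyte gene called in any comparison, the called genes of each list of another cell type, and the genes most like Dct. Alternatives were DESeq2 (version 1.42.0), its size factors in edgeR, no filter on low counts, fits of only the groups compared, the animal series as a covariate, replicate number or animal as a block, leaving out the pools, the controls with Cre, or 1 library at a time. The folds without single libraries or within a series, and the relations to other cell type lists, were chosen after the data had been seen. Deviations from the group means correlated between libraries of the same replicate number by -0.0872 to 0.282 (28 pairs, 3 over 0.1), so the numbers were not taken to pair the libraries. Libraries from the same embryo correlated by 0.00303 to 0.193 (8 pairs, 5 over 0.1, median 0.108, pairing taken from the animal numbers). Among pairs that shared neither, 16 of 163 were over 0.1, with a median of -0.0114. The main fit did not pair the vessels of an embryo, and the animal as a block was used only as an alternative.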

Additional observations from a re-analysis of the deposited data

Results flagged for a closer look

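In 84 combinations of a gene and a group, 11 had 1 library that stood apart from the others of its group by its gap to the nearest library relative to the range (Dixon's criterion, which chance passes in about 1 in 20 groups of normally distributed values). Of these, 6 were in control aorta replicate 4, for Dct (7.905 CPM), Tyrp1 (2.844 CPM), Mlana (0.241 CPM), Slc45a2 (0.9158 CPM), Gpnmb (3.278 CPM) and Mcoln3 (1.157 CPM). Control DA replicate 3, from the embryo with neither a floxed allele nor Cre, stood apart for Mlana (3.448 CPM), Slc45a2 (8.842 CPM) and Gpnmb (27.41 CPM). Mlana in Prdm6-deficient DA replicate 1 (1.558 CPM) and Tyr in Prdm6-deficient aorta replicate 1 (0.2649 CPM, from 5 counts) were the only values above 0 in their groups. The same held for Mlana, Slc45a2 and Mcoln3 in control aorta replicate 4. A value of this kind always passes, so the rate of 1 in 20 does not apply to such groups.

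The effect of Prdm6 deficiency differed between the DA and the aorta for 2 of the 49 other melanocyte genes tested. The log2 fold change in the DA minus that in the aorta was -0.7196 for Kitl (edgeR adjusted p = 0.00891) and -1.353 for Rab27a (edgeR adjusted p = 0.000884).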

How the results depend on the processing

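Of the 49 other melanocyte genes, 9 were called between Prdm6-deficient and control DA (7 to 10 under other tools, fits and sample choices, and 7 to 11 when 1 library was left out), 4 between control DA and control aorta (3 to 5 in both cases) and 5 between Prdm6-deficient and control aorta (4 to 7, and 2 to 5 when 1 library was left out). The last count was 2 without control aorta replicate 1 or Prdm6-deficient aorta replicate 1, and 3 without Prdm6-deficient aorta replicate 2, 3 or 5 or control aorta replicate 6. Between Prdm6-deficient DA and Prdm6-deficient aorta the 1 call, Sox9, became 0 when only these groups were fitted, with the replicate block, without the pooled samples and with the animal as a block, and it was 0 to 1 when 1 library was left out (0 without Prdm6-deficient DA replicate 1 or 2 or Prdm6-deficient aorta replicate 1, 2, 3 or 4). The causes were not tested.

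With the replicate number as a block the counts were 9, 5, 4 and 0 in the same order, and Trpm1 (edgeR adjusted p = 0.0138), Tspan10 (0.0503), Zeb2 in the aorta (0.0107) and Sox9 between the Prdm6-deficient vessels (0.0104) were not called. The block ended no other call of the genes in the report.

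The number of genes whose Pearson correlation with Dct passed over control DA was 3, and 0 without the 2 libraries farthest from the median. It ran from 0 to 4 when 1 library was left out, with 0 without control DA replicate 2 or 3 and 1 without replicate 7. The relation to Gpr143, at r = 0.01, ran from -0.4383 to 0.3533 when 1 library was left out (-0.2461 without replicate 2) and was -0.8782 without the 2 farthest libraries.

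At this depth, levels of 3 counts or fewer per library (0.135 to 0.201 CPM) were not told apart from 0, which leaves folds against such groups as lower bounds. The first series held 2 of the 7 control DA libraries.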
